A study of Mus musculus with 3 samples.

Results

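The 10 genes described here make or control actin filaments: the actins Actb and Actg1, the monomer-binding genes Tmsb4x, Tmsb10 and Pfn1, the filament-severing gene Cfl1, the branching genes Arpc2 and Coro1a, and the bundling genes Lcp1 and Fscn1. They were named as a list and found by symbol in the transcript tables, and their gene identifiers were then looked up in the gene tables. All 10 were found, among 55450 annotated genes present in both kinds of table. Polyadenylated RNA was measured in macrophages from bone marrow of the inbred mouse strain C57BL/6J, in 3 samples that form a single group (replicates 1, 2 and 3). All of them had met lipid A, the part of bacterial endotoxin that Toll-like receptor 4 senses, at 100 ng/ml during 12 hours, were then washed and left without it for 12 hours, and met it again at 100 ng/ml for 180 minutes. Other label fields call the agent lipoprotein A, a protein, and the conflict was not resolved here. All samples carry the same donor record, and sex and age were not collected, so the spread between replicates may be technical. Unexposed cells and cells exposed once were not analysed here, so the data give levels, ratios and spread within this group and no response to lipid A.

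Actin is a small protein that joins end to end into filaments. A macrophage builds and takes apart these filaments continuously as it crawls, spreads and engulfs particles. Thymosins hold actin monomers in reserve, profilin exchanges the nucleotide on monomers and feeds them to growing ends, and cofilin severs old filaments and returns monomers to the pool. The Arp2/3 complex starts new branches, coronins act on these branches, and plastin and fascin tie filaments into bundles. Monomeric actin also holds the coactivators MRTF-A and MRTF-B, partners of the transcription factor SRF, in the cytoplasm, and actin genes are among the targets of SRF.

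The libraries summed to 23418690, 36863611 and 37728915 expected counts. The replicates differed by more than sampling noise, with a chi-square per degree of freedom of 85.6 to 90.2 over 9993 genes, so none was a second deposit of another. The labelled cell type was checked against its markers: all 15 macrophage genes listed reached 1 TPM (a transcript level corrected for length and library size) in every replicate, with a summed level of 24710 to 27900 TPM. Markers of T and NK cells (0 of 10), smooth muscle (0 of 9), fibroblasts (0 of 9), B cells (1 of 8) and megakaryocytes (1 of 8) were mostly below 1 TPM. Endothelial (2 of 7), dendritic cell (2 of 12) and neutrophil markers (4 of 12) were detected in part, and those that stand beside a result are given with it.

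The actins and the thymosins are families of close relatives, and their sequences show how far a sequencing read can tell the members apart. The opening 150 bases of the coding sequences of Actb and Actg1 are printed below because these genes encode nearly the same protein from different bases; capitals mark the bases that differ between them, 27 in this stretch.
Actb (Actb-201, mm10, minus strand): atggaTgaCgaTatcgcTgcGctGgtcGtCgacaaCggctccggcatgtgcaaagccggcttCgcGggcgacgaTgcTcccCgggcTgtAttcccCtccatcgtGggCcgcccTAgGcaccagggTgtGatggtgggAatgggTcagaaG
Actg1 (Actg1-202, mm10, minus strand): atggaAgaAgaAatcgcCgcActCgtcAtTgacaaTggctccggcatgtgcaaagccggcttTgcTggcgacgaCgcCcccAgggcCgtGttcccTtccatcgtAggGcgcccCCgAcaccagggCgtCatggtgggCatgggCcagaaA
Over all 1125 coding bases without the stop codon, the actin sequences differed at 128 positions (88.6% identity), and their longest identical run was 62 bases.

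The coding sequences of Tmsb4x and Tmsb10, 132 bases each without the stop codon, are short enough to print whole. Capitals again mark the 40 bases that differ (69.7% identity), and no identical run was longer than 10 bases.
Tmsb4x (Tmsb4x-201, mm10, minus strand): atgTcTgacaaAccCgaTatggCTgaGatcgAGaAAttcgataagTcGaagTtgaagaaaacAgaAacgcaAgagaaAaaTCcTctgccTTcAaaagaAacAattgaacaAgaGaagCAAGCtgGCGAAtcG
Tmsb10 (Tmsb10-203, mm10, minus strand): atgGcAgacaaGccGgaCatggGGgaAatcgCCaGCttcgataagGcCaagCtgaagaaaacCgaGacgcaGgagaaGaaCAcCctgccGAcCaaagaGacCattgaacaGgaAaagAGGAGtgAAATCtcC

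Actg1 has a copy that is far closer to it than Actb is. Gm12715, annotated as a processed pseudogene on chromosome 4 (mm10, 103563402 to 103564529, plus strand), differs from the Actg1 coding sequence at 4 of 1125 positions. The window of 90 bases with most of these differences, coding bases 775 to 864 of Actg1, is shown because a read from the rest of it fits both genes; capitals mark the 3 bases that differ.
Actg1: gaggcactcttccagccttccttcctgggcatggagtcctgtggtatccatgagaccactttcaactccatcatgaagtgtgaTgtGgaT
Gm12715: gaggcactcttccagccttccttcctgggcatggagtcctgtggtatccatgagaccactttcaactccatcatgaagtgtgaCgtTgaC
The identical run between Actg1 and this copy reached 857 bases.

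By TPM, Tmsb4x was the most abundant of the 10 messages and the 5th most abundant among the 21938 nuclear protein-coding genes. It encodes thymosin beta-4, which holds single actin molecules apart from filaments. Its level was 14519, 18699 and 12664 TPM in replicates 1, 2 and 3, a mean of 15294 ± 3091 TPM (SD, n = 3), with the highest value in replicate 2. The gene lies on chromosome X (167207093 to 167209315, minus strand, ENSMUSG00000049775.16). Tmsb10, on chromosome 6 (72957347 to 72958748, minus strand, ENSMUSG00000079523.8), encodes the related thymosin beta-10. It stood at 2131, 1751 and 2878 TPM (2253 ± 573 TPM), so replicate 2 was its lowest. The ranges of the thymosin genes did not overlap, and Tmsb4x exceeded Tmsb10 by 6.81-, 10.7- and 4.40-fold, a log2 ratio of 2.77 ± 0.64.

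Actb, which encodes beta-actin, was at 7468, 6376 and 5851 TPM, a mean of 6565 ± 825 TPM (SD, n = 3) and rank 12 among nuclear protein-coding genes. It lies on chromosome 5 (142903115 to 142906754, minus strand, ENSMUSG00000029580.14). Actg1, which encodes gamma-actin, lies on chromosome 11 (120345690 to 120348542, minus strand, ENSMUSG00000062825.15). It was at 1846, 1784 and 2453 TPM (2028 ± 370 TPM, rank 43). Replicate 3 held the lowest Actb and the highest Actg1 value, so the ratio of Actb to Actg1 was 4.05, 3.57 and 2.39, a log2 ratio of 1.70 ± 0.40. The 4 muscle actins were all below 1 TPM: Acta2 of smooth muscle was at 0.39, 0.33 and 0.11 TPM, Acta1 at 0.05, 0 and 0 TPM, and Actc1 and Actg2 were listed at 0.

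Messages of monomer-holding thymosins outnumbered those of actin on the TPM scale. The summed TPM of Tmsb4x and Tmsb10 was 1.79, 2.51 and 1.87 times that of Actb and Actg1 in replicates 1, 2 and 3, a log2 ratio of 1.02 ± 0.26. This ratio depends on division by length. The thymosin messages are short, and the deposited effective lengths, which subtract the fragment length, were 507, 488 and 479 bases for Tmsb4x and 312, 294 and 285 bases for Tmsb10, against 1647, 1625 and 1616 bases for Actb. On expected counts, which are not divided by length, actin exceeded the thymosins, with a log2 ratio of -0.79 ± 0.28.

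Pfn1 encodes profilin, which returns actin monomers to growing filament ends. It was at 1797, 1677 and 1572 TPM, a mean of 1682 ± 113 TPM (SD, n = 3), on chromosome 11 (70651850 to 70654644, minus strand, ENSMUSG00000018293.4). Cfl1 encodes cofilin-1, which cuts filaments, and was at 1216, 1295 and 1281 TPM (1264 ± 42.3 TPM), on chromosome 19 (5490455 to 5495201, plus strand, ENSMUSG00000056201.8). Cfl1 was below Pfn1 in every replicate on the TPM scale, at 0.677, 0.772 and 0.815 of its level. The log2 ratio was -0.41 ± 0.14 in TPM but 0.42 ± 0.11 in expected counts, so the order of these genes also turns on length. Their paralogs were scarcer. Cfl1 exceeded Cfl2, the cofilin of muscle, by 48.5-, 59.5- and 68.3-fold and Dstn, which encodes the related destrin, by 12.4-, 9.42- and 9.74-fold. Pfn2, a profilin typical of neurons, stood at 1.26, 0.88 and 1.5 TPM, which left Pfn1 1426-, 1906- and 1048-fold above it (log2 ratio 10.5 ± 0.43).

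Arpc2, which encodes a subunit of the Arp2/3 complex, was at 738, 794 and 769 TPM, a mean of 767 ± 28.0 TPM (SD, n = 3). It lies on chromosome 1 (74236084 to 74268209, plus strand, ENSMUSG00000006304.14). The subunits did not stand at 1 level. Arpc3 was at 848 ± 12.6 TPM and Actr3, an actin-related subunit, at 688 ± 74.4 TPM. Actr3b was below 1 TPM in every replicate. Arpc2 was 2.02, 1.84 and 1.76 times the median of the other 9 listed subunits and isoforms. That median is lowered by the scarce Arpc1a, Arpc5l and Actr3b, at means of 53.2, 44.5 and 0.563 TPM. Coro1a encodes coronin-1A, the coronin of blood cells, and lies on chromosome 7 (126699773 to 126707787, minus strand, ENSMUSG00000030707.15). Its level was 200, 267 and 210 TPM (226 ± 36.1 TPM), highest in replicate 2, and 0.272, 0.336 and 0.273 of that of Arpc2. Coro1a was not the most abundant coronin: it was below Coro1b in each replicate (log2 ratio -0.65 ± 0.28), which was at 351 ± 17.8 TPM. It was above Coro1c in TPM (1.32 ± 0.21) but level with it in expected counts (-0.036 ± 0.178).

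Lcp1 and Fscn1 both encode bundling proteins and stood far apart. Lcp1 encodes L-plastin, the plastin of blood cells, and was at 898, 880 and 1142 TPM, a mean of 973 ± 146 TPM (SD, n = 3), on chromosome 14 (75131101 to 75230842, plus strand, ENSMUSG00000021998.16). Fscn1 encodes fascin, which packs filaments into the tight bundles of filopodia and dendrites of mature dendritic cells, and lies on chromosome 5 (142960343 to 142973185, plus strand, ENSMUSG00000029581.14). It was at 31.2, 24.6 and 36.0 TPM (30.6 ± 5.70 TPM, rank 3491), the lowest of the 10. Lcp1 exceeded it by 28.8-, 35.8- and 31.7-fold, a log2 ratio of 5.0 ± 0.16. Pls3, the plastin of most solid tissues, was at 4.93, 2.14 and 2.86 TPM, a log2 difference of 8.28 ± 0.67 below Lcp1. Fscn2, the fascin of the retina, was listed at 0, 0 and 0.62 TPM. Beside Fscn1, 2 of 12 dendritic cell markers reached 1 TPM in every replicate: Ccl22 at 19.1, 13.2 and 29.4 TPM and Ccr7 at 4.31, 3.66 and 3.00 TPM. Flt3, Zbtb46 and Clec9a, which define that lineage, were below 1 TPM throughout and Cd209a was listed at 0. Ccl22 was, like Fscn1, lowest in replicate 2 and highest in replicate 3, while Ccr7 was lowest in replicate 3. The summed level of the list, 26.4, 20.8 and 35.0 TPM, was mostly Ccl22, and the part of these markers in the Fscn1 level was not tested.

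**Figure D1:**
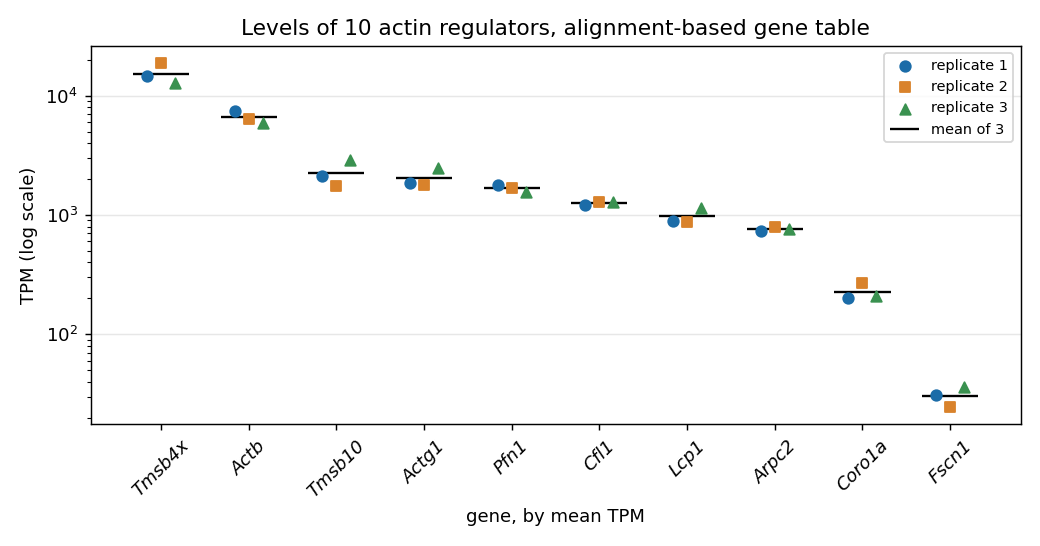
TPM of the 10 genes (log axis) in replicates 1, 2 and 3, with the mean of 3 as a bar, ordered by mean. Levels run from 15294 TPM for Tmsb4x to 30.6 TPM for Fscn1, and the points of Tmsb10, Actg1 and Pfn1 lie close together.

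Taken as a list, the 10 genes took 3.09%, 3.36% and 2.89% of all TPM and 2.06%, 2.08% and 1.95% of all expected counts. All 10 reached 1 TPM in every replicate, against 44.3% of 21938 nuclear protein-coding genes. Their median log2(TPM + 1) was 10.5 ± 0.033, against 0.42 over all nuclear protein-coding genes and 4.24 over the 9729 of those that were expressed. Neighbours in the order of levels were called apart where the difference had 1 sign in all replicates and its mean exceeded its SD. By this rule 7 of 9 neighbouring pairs were apart. Tmsb10 and Actg1 were not, with a log2 difference of 0.14 ± 0.14, nor were Actg1 and Pfn1, at 0.26 ± 0.33. This order is one of TPM and depends in part on division by length. In expected counts Tmsb4x was below Actb, Pfn1 below Cfl1 and Cfl1 below Lcp1 in every replicate. Tmsb10, not apart from Actg1 in TPM, was at 10586, 13339 and 21714 expected counts. This was below Actg1, Lcp1, Cfl1, Pfn1 and Arpc2 in every replicate. With 3 replicates, an exact two-sided sign-flip test cannot give a p below 0.25. This was its value for each TPM ratio tested, since none of those changed sign between replicates. The test was not reported for the neighbour difference of Tmsb10 and Actg1 or for ratios in expected counts. Of these, Tmsb10 to Actg1 in TPM and Coro1a to Coro1c in expected counts did change sign.

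**Figure D2:**
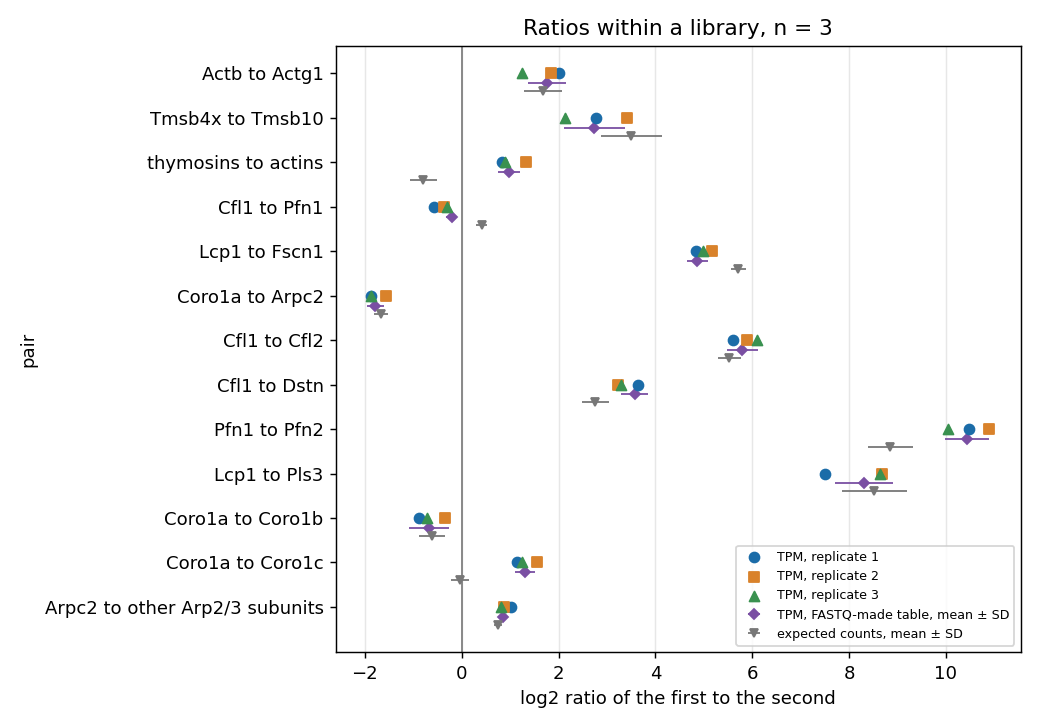
Log2 ratio of the first gene or group to the second within each library (horizontal axis) for 13 pairs (vertical axis), with TPM of each replicate and, below it, the mean ± SD from the FASTQ-made table and from expected counts. Thymosins to actins and Cfl1 to Pfn1 lie on opposite sides of 0 in TPM and in expected counts. Coro1a to Coro1c lies above 0 in TPM and within its SD of 0 in expected counts.

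The same libraries were quantified in 2 ways, from a transcriptome alignment (all values above) and from the FASTQ reads without it, and the 10 genes moved with the scale as a whole. None of the 10 differed by more than 1.5-fold in 1 direction in all 3 replicates, against 1.84% of 10103 genes tested (0.812% lower and 1.03% higher in the FASTQ-made table). Actb, for example, was at 4951, 5432 and 5640 TPM in the FASTQ-made table, below its other values by 0.59, 0.23 and 0.05 on the log2 scale. The median gene moved by -0.48, -0.18 and -0.02 in replicates 1, 2 and 3, and the median of the 10 by -0.52, -0.22 and -0.05. Measured from the median gene, all 10 lay within 0.25 in every replicate, and none was past 1.5-fold, against 2.02% of genes (0.406% lower and 1.61% higher). Pfn1 lay lowest, at -0.13 ± 0.01, and Fscn1 highest, at 0.09 ± 0.04. In the FASTQ-made table a few small RNAs and Klf10 took much of the TPM: Mir6236 was listed at 0 in the alignment table and at 102792, 108562 and 56900 TPM in the other, and Klf10 went from 4.87, 8.47 and 4.97 TPM to 101009, 1129 and 1297 TPM. The part of these genes in the shift was not tested.

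The ratio of Actb to Actg1 was nearly the same in the FASTQ-made table, at log2 2.06, 1.88 and 1.31 (1.75 ± 0.39). That of Tmsb4x to Tmsb10 was 2.74 ± 0.63 and that of thymosins to actins 0.98 ± 0.23. Cfl1 and Pfn1 came closer together, at -0.21 ± 0.12. The order of the 10 and the 7 pairs called apart did not change.

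**Figure D3:**
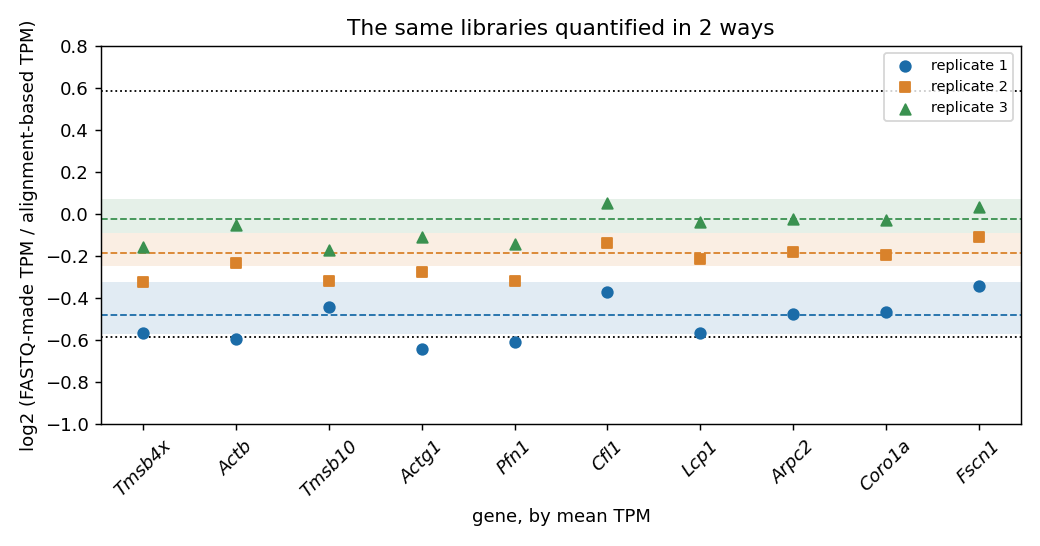
Log2 of FASTQ-made over alignment-based TPM for each gene (ordered by mean TPM) in replicates 1, 2 and 3. Dashed lines and bands are the median and the interquartile range of 10103 genes in each replicate, and dotted lines mark 1.5-fold; the points follow their replicate's median, which is lowest in replicate 1 at -0.48.

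Copies and relatives in the genome could take or give reads, and this differed sharply between the genes. Of the 31-base sequences in their annotated transcripts, Actg1 shared 40.2%, Tmsb10 32.0%, Actb 23.6%, Cfl1 22.6%, Lcp1 14.4%, Arpc2 5.11% and Pfn1 0.329% with transcripts of other genes. Tmsb4x, Coro1a and Fscn1 shared none, so Tmsb4x, though it is known to have pseudogenes, had no such copy among the annotated transcripts. At 51 bases the shares were 37.2% for Actg1, 26.7% for Tmsb10, 18.1% for Cfl1, 8.49% for Actb and 7.97% for Lcp1.

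Gm12715, the copy of Actg1 shown above, held 36.6% of the 31-base sequences of Actg1 and 3.76% of those of Actb. It was at 55.8, 46.8 and 67.5 TPM in the alignment table and at 1.69, 0.306 and 1.79 TPM in the FASTQ-made table. The level in the alignment table was 2.80% of that of Actg1, and adding all pseudogenes that share sequence to both actins changed the log2 ratio of Actb to Actg1 from 1.70 to 1.67. Gm8399, another actin pseudogene, stood at 2.51, 3.80 and 4.44 TPM against 1.47, 1.10 and 1.36 TPM. Gm15515, which shares 1 such sequence with Actb, was listed at 0 in the alignment table and at 24.5, 1.66 and 1.47 TPM in the FASTQ-made table. Whether any of these reads come from the copies cannot be told apart from reads of the parent by these tables, but the amounts are small beside the parent.

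Tmsb10 shares most with Gm9844, which is annotated as protein coding and stood at 15.1 ± 5.41 TPM in the alignment table and 0.797 ± 0.608 TPM in the FASTQ-made table, under 1% of Tmsb10 in both. Its pseudogenes Gm3788, Gm8034 and AC113528.1 were listed at 0 in the alignment table and at no more than 6.57 TPM in the other. The Cfl1 copy Gm6180, which matched the coding sequence of Cfl1 at 98.8% of the bases it covers, was at 4.44, 4.82 and 4.26 TPM against 0.560, 1.06 and 0.408 TPM. Cfl1 also overlaps Snx32 on the opposite strand over 2967 bases, and Snx32 was at 7.42 ± 1.26 TPM. Whether counting used strand is not stated in the labels or headers, so reads of the overlap are uncertain, as are those of 26 bases shared by Coro1a and Bola2 and of the stretches of Lcp1 that lie opposite Gm15628 and Gm15629. Actb shared 15.2% of its 31-base sequences with Lrrc58, a gene at 19.3 ± 1.23 TPM.

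For Cfl1 and Lcp1 the number of partners was large, 736 and 303 genes. Beside Snx32 at 14.3% and Gm6180 at 9.91%, no partner of Cfl1 held more than 1.63% of its sequences, and for Lcp1 the largest share was 5.22%, in Gm6201. The 64 pseudogenes that share sequence with Lcp1 summed to 8.85, 9.99 and 9.28 TPM in the alignment table and 95.3, 88.8 and 68.0 TPM in the FASTQ-made table, and none that reached 1 TPM shared more than 0.272% of the sequences of Lcp1. The best of these, Gm47147, was at 1.19, 0.526 and 0.773 TPM in the FASTQ-made table, and Gm42857, at 19.1, 11.6 and 3.40 TPM, shared 0.188%. Gm48443, Gm48774 and Gm48976 also reached 1 TPM in the FASTQ-made table, at no more than 2.46 TPM, and were listed at 0 in the other. Of the pseudogenes that share sequence with Cfl1, 2810039B14Rik, Gm48789, 9430025C20Rik and Zfp783 reached at most 1.52, 3.85, 1.04 and 1.19 TPM, each sharing under 0.35% of its sequences.

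Of the 10 genes, 5 were carried almost wholly by a single transcript. Actb-201, Actg1-202, Tmsb4x-201, Tmsb10-203 and Pfn1-201 held 98.6%, 98.6%, 98.9%, 99.0% and 98.4% of their gene's TPM (means of 3 replicates), and 97.8% to 99.1% in the FASTQ-made table. Arpc2 was split between Arpc2-203 at 74.5% ± 2.13 and Arpc2-201 at 25.3% ± 2.21, and the FASTQ-made table gave 73.5% ± 2.98 and 26.2% ± 3.08. Lcp1 was divided between Lcp1-209, at 52.5%, 58.8% and 62.5%, and Lcp1-206, at 44.9%, 38.8% and 35.3%, and both tables put Lcp1-209 ahead in each replicate.

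Cfl1 and Fscn1 were assigned less steadily. Cfl1-201 held 76.4% ± 2.33 of Cfl1, the longer Cfl1-202 17.2% ± 2.01 and the shorter Cfl1-204 1.03%, 9.23% and 7.87% in replicates 1, 2 and 3, against 12.0%, 17.6% and 17.5% for Cfl1-204 in the FASTQ-made table. Fscn1-201 held 70.3% ± 5.20 of Fscn1, while Fscn1-207 took 5.86%, 24.2% and 22.2% in the alignment table and 0%, 3.45% and 3.23% in the other, so the level of Fscn1-207 rests on the quantification. Coro1a was the only one of the 10 with more than 2% of its TPM in transcripts annotated as retained introns in the alignment table, at 8.76%, 10.04% and 4.90% in replicates 1, 2 and 3, and 15.3%, 11.3% and 6.70% in the FASTQ-made table. Over expressed nuclear protein-coding genes this share had a median of 0.528%, 0.373% and 0.0927% and an upper quartile of 6.33%, 4.88% and 3.08% in the alignment table, so the share of Coro1a lay above the upper quartile in each replicate and was, like that quartile, lowest in replicate 3.

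By median SD, the 10 genes varied between replicates about as much as all genes kept and more than the most abundant of them. They shared no common direction. On TMM-scaled log2 CPM (counts scaled to library size, not divided by length), the SD over replicates had a median of 0.21 over the 10, against 0.19 over 12018 genes kept and 0.16 over the 1202 most abundant of them. Cfl1 and Arpc2 were the steadiest, with SDs of 0.025 and 0.033, at the 2.16 and 4.24 percentile among 1202 genes of like abundance. Tmsb10 and Fscn1 were the least steady, with SDs of 0.36 and 0.32, at the 91.4 and 87.8 percentile.

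The direction differed by gene. Actb, Cfl1 and Pfn1 were highest in replicate 1, Tmsb4x, Arpc2 and Coro1a in replicate 2, and Actg1, Tmsb10, Lcp1 and Fscn1 in replicate 3. Actg1 deviated from its mean by -0.11, -0.19 and 0.30, Lcp1 by -0.11, -0.16 and 0.26, Tmsb10 by 0.02, -0.37 and 0.35, and Fscn1 by 0.01, -0.33 and 0.32 on the log2 scale. Tmsb4x went the other way, at -0.01, 0.28 and -0.27. Most neutrophil markers detected were highest in replicate 2. There S100a8, S100a9 and Ngp were at 39.4, 58.0 and 7.78 TPM, against 6.84, 4.2 and 0.39 TPM in replicate 1 and 5.36, 5.10 and 0.28 TPM in replicate 3. Mmp8, at 5.10, 6.92 and 3.54 TPM, was also highest in replicate 2. So were Ltf and Camp, each at no more than 1.73 TPM, while Lcn2 was not. Mpo at 0.17, 0.18 and 0 TPM, Cxcr2 at 0, 0.01 and 0 TPM and Elane at 0, 0 and 0.11 TPM were too low to rank. Over the whole neutrophil list 4 of 12 genes reached 1 TPM in every replicate, the sum was 220, 198 and 80.6 TPM, highest in replicate 1 with Lcn2 at 203, 83.0 and 65.9 TPM of it, and Ly6g and Retnlg were listed at 0. The summed T and NK cell markers were at 0, 2.5 and 0.26 TPM and the B cell markers at 2.26, 6.04 and 2.73 TPM, both highest in replicate 2, with 0 of 10 and 1 of 8 genes at 1 TPM in every replicate. The summed endothelial markers were at 24.3, 10.01 and 21.3 TPM, lowest in replicate 2. So were Actg1, Tmsb10, Lcp1 and Fscn1 in log2 CPM, and Cfl1 by a deviation of only -0.03. Kdr made up 22.0, 6.58 and 18.7 TPM of the endothelial sum while Tek and Cldn5 were listed at 0. The low sum in replicate 2 thus follows Kdr. Pecam1, at 1.9, 2.45 and 1.73 TPM, was highest in replicate 2. Cdh5 and Esam, both below 1 TPM, were also highest there, and Emcn was at 0, 0 and 0.04 TPM. The part of such cells in these replicate differences was not tested. In bulk RNA, fewer cells of a type and less RNA per cell cannot be told apart.

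**Figure D4:**
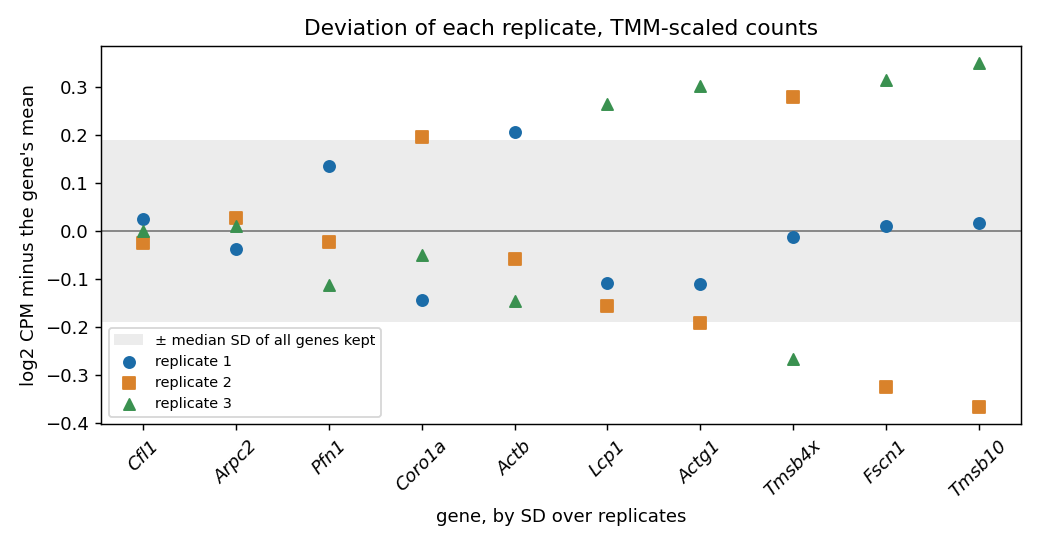
TMM-scaled log2 CPM of each replicate minus the gene's mean (vertical axis) for the 10 genes, ordered by SD over replicates; the grey band is plus and minus the median SD of 12018 genes, 0.19. Cfl1 and Arpc2 stay near 0, and Tmsb4x in replicate 2 lies opposite to Tmsb10 and Fscn1.

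The median profile of the 10 over the replicates was nearly flat, at -0.001, -0.042 and 0.006. The other genes closest to it by Euclidean distance over 3 replicates were Cyp2j6, Top3a and Tubgcp6, at distances of 0.0218, 0.0219 and 0.022. Their closeness is not particular, since 1240 of 12008 genes lay within 0.1.

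The rest of the actin system was expressed in a pattern that set the 10 in context. Of 135 further gene symbols listed in 8 groups, 132 were found and 100 (75.8%) reached 1 TPM in every replicate. By mean TPM, 4 stood above Arpc2, 32 above Coro1a and 67 above Fscn1. None of the 4 muscle actins was expressed. Of 22 genes of monomer binding and turnover 13 were expressed, led by Cap1, which encodes a cyclase-associated protein that recharges actin, at 407 ± 39.4 TPM, and Wdr1, a cofactor of cofilin, at 250 ± 27.6 TPM. Of the 9 other Arp2/3 subunits and isoforms 8 were expressed, led by Arpc3 and Actr3. Of 29 nucleation promoting factors and formins found, 25 were expressed, with Hcls1, the cortactin relative of blood cells, at 497 ± 25.3 TPM and Vasp, which extends filaments at the leading edge, at 380 ± 25.5 TPM.

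Of 13 other bundling and crosslinking genes 8 were expressed. Marcksl1, which encodes a membrane-bound actin crosslinker, was at 1915, 968 and 1793 TPM, above Lcp1 in every replicate, and its relative Marcks was at 238 ± 32.8 TPM. Of 21 coronins, capping and severing genes 15 were expressed, led by Capg, a capping protein of macrophages, at 687 ± 78.2 TPM and the capping subunit Capza2 at 433 ± 40.0 TPM. Of 20 genes of tropomyosin, myosin and membrane linkers 17 were expressed, led by the myosin light chain genes Myl6 at 1145 ± 148 TPM and Myl12b, summed over its 2 identifiers, at 579 ± 53.8 TPM. Srf was at 14.7, 17.7 and 14.6 TPM, Mrtfa, which encodes MRTF-A, at 30.5, 32.0 and 33.0 TPM and Mrtfb, which encodes MRTF-B, at 12.4, 9.35 and 11.9 TPM, all below both actins in every replicate.

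**Figure D5:**
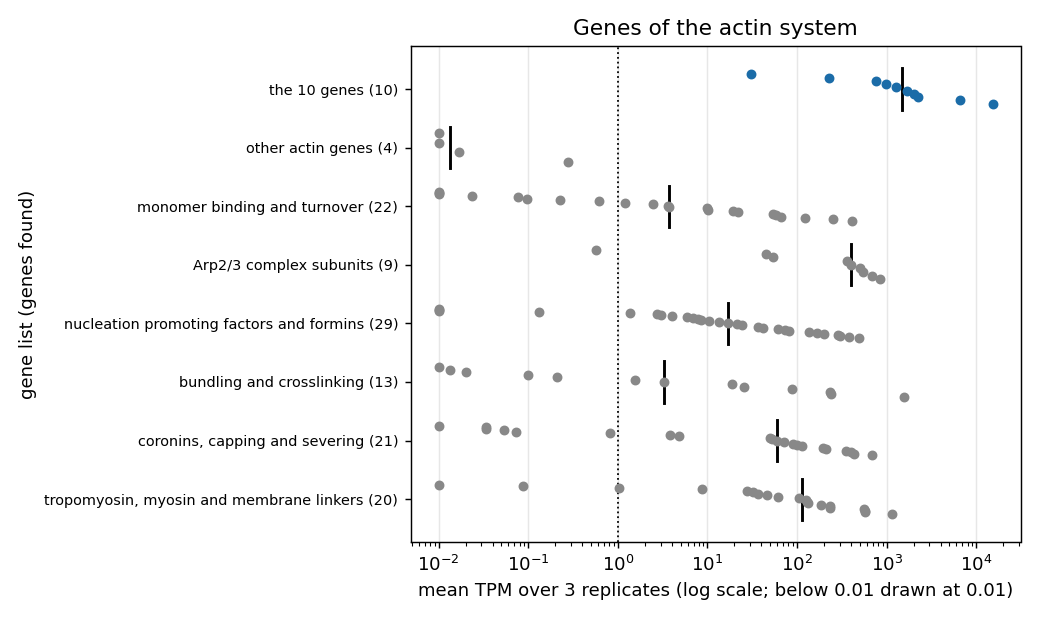
Mean TPM over 3 replicates (log axis) of each gene found in 8 lists of the actin system (vertical axis), the 10 genes in blue, with list medians as bars and a dotted line at 1 TPM. Blue points run from 30.6 to 15294 TPM, and the 4 other actins lie below 1 TPM.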

How the data were processed

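Polyadenylated RNA of 3 samples in 1 group was analysed from the submitters' tables. Per the labels, 1 µg of RNA went into each library, and the size range was 250 to 400. The file lists among the deposited files give assembly mm10 and annotation M21 for every table. The aligner and counters were not given in the sources used here. Per the file headers, tables made from an alignment list the expected count, effective length and TPM, and those made from FASTQ reads list an estimated count and TPM. The deposited percent of each gene's TPM by transcript was recomputed here. The deposited signal bounds of a TPM interval had a width of 0.827% of the level for Actb to 25.6% for Fscn1.

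FASTQ values were summed by gene. Ratios are log2 of TPM within a library, with no pseudocount. A gene was called shifted between quantifications past 1.5-fold in all 3 replicates, at 1 TPM or more in both. Expected counts were rounded, kept by filterByExpr and scaled by TMM in edgeR 4.0.16 (R 4.3.3), with a prior count of 2; rows naming no annotated gene, 0.124% to 0.194% of counts, were left out. Shared sequence is the percent of 31-base sequences found in GENCODE M21 transcripts of other genes. Sequences come from the same transcripts. The shift and spread steps were tested on simulated data, where the shift step called 99.5% of 200 genes changed 2-fold among 10446. The simulated tables lacked the offset between quantifications seen in the data, where the median gene lay at -0.48 in replicate 1. The 99.5% therefore does not give the sensitivity of the shift step without centring. The spread step put 65.5% of 200 genes changed 2-fold in 1 library, among 10502, and 3.87% of the others above the 95 percentile. DESeq2 1.42.0 gave alternative size factors, and Python 3.11.15 did the rest.

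The 10 genes and all lists were chosen with earlier results of these data known. Named genes are the 10, the 2 highest of each other list, every paralog in a ratio, Srf, Mrtfa and Mrtfb, pseudogenes that share sequence and reach 1 TPM in any replicate (5 per gene at most), and the 3 genes nearest in profile; a few others were named after their values were seen. Centring the shift on the median gene and rescaling the FASTQ values were added after seeing the data. Wash1, Mkl1 and Mkl2 were listed and not matched by symbol. 1 of the lists is not reported here.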

Additional observations from a re-analysis of the deposited data

How the results depend on the processing

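No paired analysis was possible because there is 1 group. The 3 samples share a donor record, so the spread is that between these libraries, and the exact two-sided sign-flip test used here cannot give a p below 0.25. Division by length decided most: in expected counts the log2 ratio reversed to -0.79 for thymosins to actins and to 0.42 for Cfl1 to Pfn1. Coro1a and Coro1c became level, at -0.036 ± 0.178, with a sign that differed between replicates. The ratio moved to 3.50 for Tmsb4x to Tmsb10, 5.71 for Lcp1 to Fscn1 and 5.52 for Cfl1 to Cfl2. It moved to 2.75 for Cfl1 to Dstn, 8.85 for Pfn1 to Pfn2 and 0.75 for Arpc2 to the other subunits. Expected counts also put Tmsb4x below Actb, Cfl1 below Lcp1 and Tmsb10 below Actg1, Lcp1, Cfl1, Pfn1 and Arpc2 in every replicate. In the FASTQ-made table the share of TPM taken by the 10 genes moved from 3.11% to 2.50%, their median log2(TPM + 1) to 10.3 and Cfl1 to Pfn1 to -0.21. Rescaled to nuclear protein-coding genes, the share was 3.46% in the alignment table and 3.24% in the FASTQ-made table. At 51 bases, 3 genes shared at least 10% of their sequences, against 5 at 31 bases. All 10 genes were expressed at 10 TPM and 9 at 100 TPM, since Fscn1 lay below that. No direction changed when a replicate was left out.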
